A study of Homo sapiens with 14 samples.

Results

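Ribosome biogenesis was followed through 50 of the 61541 annotated genes in the count table. They were listed by name, with earlier results of these data known. The list covers RNA polymerase I and its initiation factors, the proteins of small nucleolar ribonucleoproteins (snoRNPs), abundant nucleolar proteins, and assembly factors of both ribosomal subunits. All 50 symbols matched 1 gene ID each, and all 50 passed the low-count filter. RNA came from 6 libraries labelled BxPC-3, a human pancreatic cancer line. In the labels 3 of them carry the genotype HDAC5 knockdown and the treatment shHDAC5, a short hairpin against the class IIa histone deacetylase HDAC5, and 3 carry the genotype WT and the treatment shControl, all at day 3. The same series holds GATA1 chromatin immunoprecipitation from PANC-1, another pancreatic cancer line, with 2 immunoprecipitations and 2 inputs under each of the same treatments at day 3, as 1 peak list per treatment. The labels do not say how many hairpins or clones were used, or whether libraries came from separate cultures. The p-values are therefore measured against differences among these libraries alone, and that scatter may be technical.

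Ribosomes are built in the nucleolus. RNA polymerase I copies the ribosomal DNA into a long precursor, snoRNPs guide its chemical modification, and assembly factors cut, fold and load it with ribosomal proteins until the subunits leave for the cytoplasm. The genes of this programme are known targets of MYC, which binds the E-box sequence CACGTG, and their output is known to be high in growing tumour cells.

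The libraries labelled as HDAC5 knockdown held more HDAC5 mRNA than those labelled as control, with 162, 161 and 169 CPM (counts scaled to library size with TMM factors) under the shHDAC5 label, against 95.4, 91.7 and 97.7 CPM under the shControl label (log2 fold change 0.79, standard error 0.0358, adjusted p = 3.95e-40). The target thus went against the label, and every direction below is between libraries as labelled. Total counts ran from 15179758 to 17854340 per library. At these similar depths, the number of genes detected was 33115 to 33632 under the shHDAC5 label and 25775 to 26078 under the shControl label. Pearson r of log2 CPM across genes was 0.814 to 0.8165 between libraries of different labels, and 0.9926 to 0.9929 within the shHDAC5 label and 0.9925 to 0.993 within the shControl label. Of 19181 genes tested, 84.7% passed at 0.05, 39.9% being lower and 44.8% higher. Fold changes, standard errors and adjusted p come from edgeR's quasi-likelihood test, adjusted over all tested genes by the Benjamini-Hochberg method. Among 6 epithelial markers, KRT8 and KRT18 were abundant, at 1009.8 and 327 CPM under the shHDAC5 label against 717 and 404 CPM under the shControl label, while EPCAM, CDH1 and KRT19 stayed under 3 CPM in every library. KRT7 differed most of the 5 that were tested, with 25.3 ± 0.445 CPM under the shHDAC5 label and 371 ± 9.72 CPM under the shControl label (SD, n = 3 each; log2 fold change -3.87, standard error 0.0394, adjusted p = 9.28e-102). Summed over the list, epithelial markers ranged from 1327 to 1395 CPM under the shHDAC5 label and from 1477 to 1507 CPM under the shControl label, with 2 lower and 1 higher. The 6 fibroblast markers summed to 84.3 to 89.7 CPM under the shHDAC5 label and 120.2 to 129 CPM under the shControl label, with 3 lower, none higher and LUM at 0 counts in all 6 libraries. The 5 endothelial markers summed to 3.66 to 4.35 CPM under the shHDAC5 label and 1.21 to 1.74 CPM under the shControl label, with 1 higher. The 6 leukocyte markers summed to 5.26 to 6.74 CPM under the shHDAC5 label and 3.32 to 4.19 CPM under the shControl label, also with 1 higher. The 13 mitochondrial mRNAs took 5.48% to 5.63% of total counts under the shHDAC5 label and 4.79% to 4.82% under the shControl label. Over TMM-scaled sizes, as for the other markers, the mean shares were 5.22% (shHDAC5) and 5.13% (shControl), with 7 mRNAs lower and 6 higher. The part of these differences in the results below was not tested, and in bulk RNA fewer cells of a kind and less RNA per cell cannot be told apart. That the libraries came from BxPC-3 rests on the labels and was not tested. Of the 6 epithelial markers, 3 stayed under 3 CPM in every library.

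Of the 50 genes, 36 were lower in the libraries labelled shHDAC5, 10 were higher and 4 did not pass. That is 72% lower and 20% higher, beside 39.9% lower and 44.8% higher among all genes tested. The median log2 fold change was -0.55 over the 50 genes and 0.09 over all tested genes. Most changes were modest: 10 genes were lower and 2 higher by at least 2-fold, or 20% and 4% of the list, beside 20.1% and 26.4% of all tested genes. The 3 libraries of one label did not overlap those of the other for 34 lower and 10 higher genes, beside 39.8% and 45% of all tested genes (84.8% in either direction). The fold changes ran from -2.44 on the log2 scale for UBTF to 1.58 for RRP9. The plot of CPM by library shows how tightly the replicates lay beside the gap between labels.

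**Figure D1:**
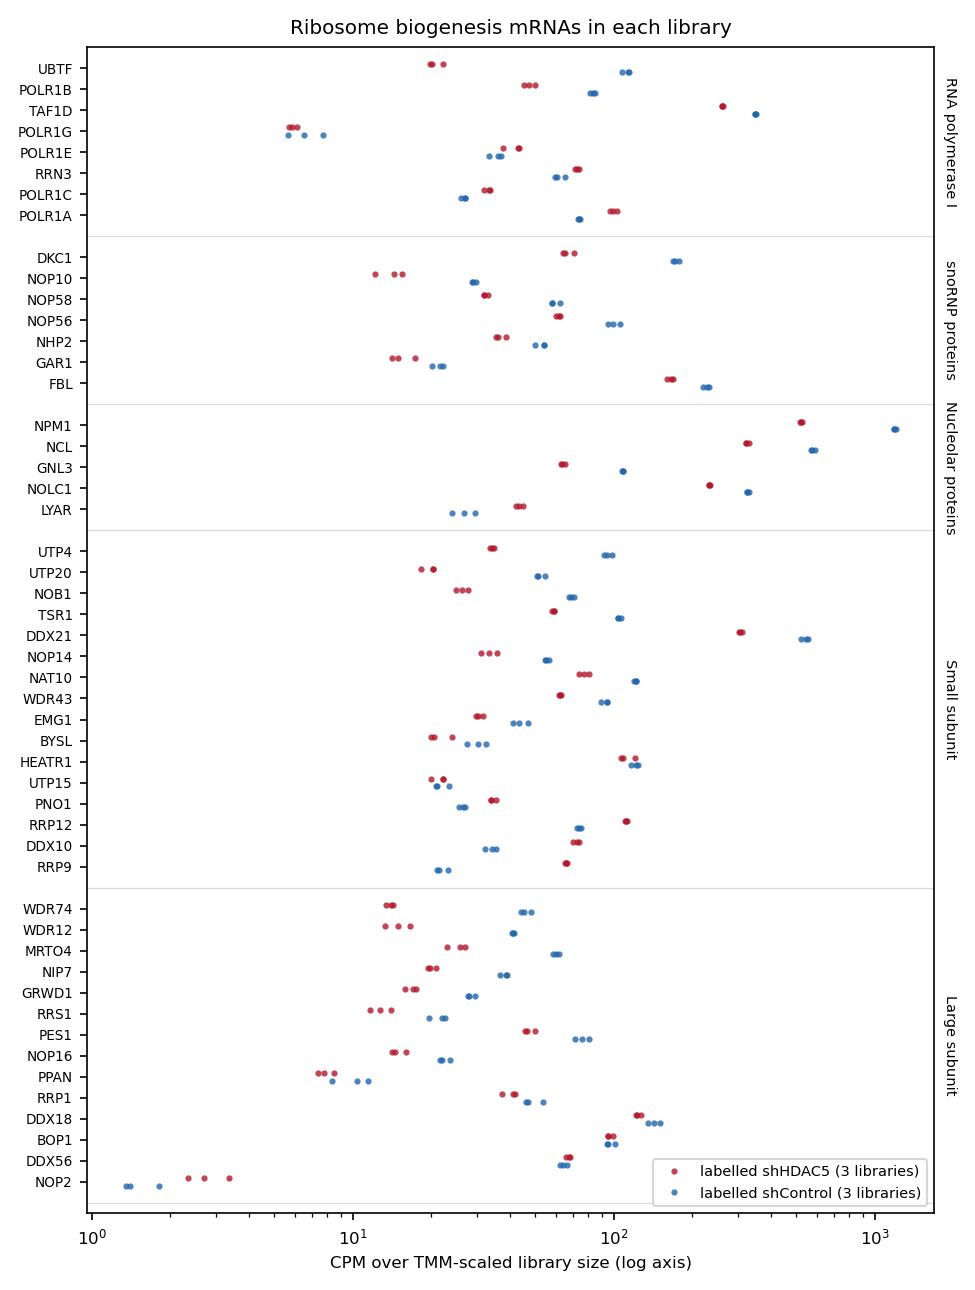
CPM of the 50 ribosome biogenesis mRNAs on a log axis, 1 point per library, with libraries labelled shHDAC5 in red above and those labelled shControl in blue below, grouped by role. Red points lie left of blue points for UBTF, DKC1, UTP4 and WDR74, and right of them for RRP9, DDX10 and LYAR.

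Other scalings shift every gene by 1 amount and so moved the zero point and the counts of calls. With upper-quartile factors 33 genes were lower and 12 higher, and with total counts 32 and 13. These scalings raised the median of all genes by 0.14 and 0.18 on the log2 scale. The gap between the median of the 50 genes and that of all genes is fixed under any scaling, at -0.64 with TMM. It changed with the genes tested, to -1.28 with DESeq2 and -1.27 without a filter, each over 41231 genes, and to -0.59 over the 17376 genes with at least 1 CPM in 3 libraries.

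Together the 50 mRNAs took 0.399% ± 0.00103 of all counts in the libraries labelled shHDAC5, against 0.548% ± 0.00031 in those labelled shControl (SD, n = 3 each). Their summed level was 3753 ± 4.29 CPM under the shHDAC5 label and 5852 ± 51.8 CPM under the shControl label (SD, n = 3 each), a ratio of 0.641. The 3 most abundant under the shControl label, NPM1, NCL and DDX21, made up 32%, 12.1% and 11.3% of the net difference. Without these 3 the other 47 mRNAs summed to 2600 ± 11.7 CPM under the shHDAC5 label and 3534 ± 15.4 CPM under the shControl label, a ratio of 0.736. The nucleolar proteins showed the widest gap of the 5 role groups, with 0.126% ± 0.00095 of counts under the shHDAC5 label and 0.210% ± 0.000295 under the shControl label (SD, n = 3 each). NPM1 carried most of that gap, at 523 CPM under the shHDAC5 label and 1195 CPM under the shControl label. The groups were not ranked without it. The RNA polymerase I group showed the narrowest gap, with 0.0618% ± 0.000193 under the shHDAC5 label and 0.0702% ± 0.000946 under the shControl label. It lay chiefly in UBTF and TAF1D, with differences of -91.3 and -89.0 CPM, while 4 of the 8 genes were higher.

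**Figure D2:**
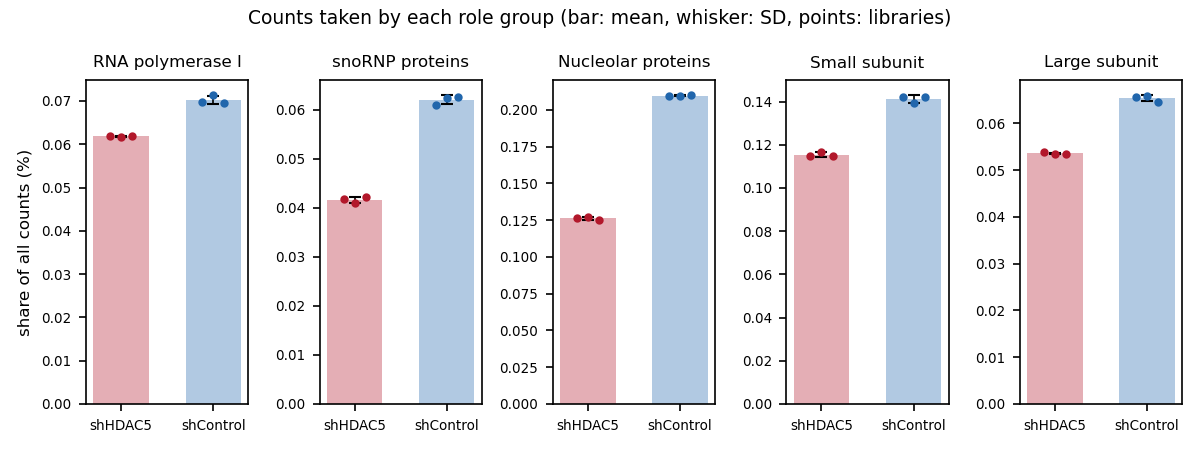
Share of all counts, in percent, taken by each role group, with bars for the mean of 3 libraries, whiskers for the SD and points for libraries, and a separate vertical axis from 0 in each panel. In every panel the 3 points labelled shHDAC5 lie below the 3 labelled shControl, with means of 0.126% (shHDAC5) and 0.210% (shControl) for the nucleolar proteins and 0.0618% (shHDAC5) and 0.0702% (shControl) for RNA polymerase I.

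Many promoters of these genes hold a sequence that the rule for listing them did not use. RefSeq (build GRCh38.p14) gives a window from 250 bases before to 50 bases after the gene start for 43 of the 50, of which 10 have 2 listed starts and a window at each; NOP58, BOP1, NOLC1, DDX18, POLR1E, RRS1 and RRP12 have no entry in the table used. The E-box CACGTG, which reads the same on both strands, was present in 18 of the 43 (41.9%), beside 10.9% of 15843 coding genes with such windows. It was also present in 27 of 91 promoters of the second list of ribosome biogenesis genes described further on (29.7%). It lay close to the start: 17 of the 19 E-boxes began no further than 50 bases upstream (89.5%), beside 37.7% of the 1975 E-boxes in windows of all coding genes, each set against its gene's own starts. The GATA motif AGATAA, searched on both strands, was present in 1 of 43 (2.33%), beside 2.2% of the second list and 10.2% of coding genes. The following 30-base stretches, 5′ to 3′ on the gene's strand with the E-box in capitals, come from some of these genes. They cover each kind of call but are not in proportion to it. Of the 18 genes with an E-box, 13 were lower, 4 higher and 1 did not pass. UTP4, UTP20, MRTO4 and NOP10 were lower in the libraries labelled shHDAC5, POLR1G did not pass, and PNO1, LYAR and RRP9 were higher.
UTP4, chr16:69132621-69132650, plus strand: agagcgcgcgcgCACGTGgggccggggcgg
UTP20, chr12:101280083-101280112, plus strand: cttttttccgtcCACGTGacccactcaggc
MRTO4, chr1:19251807-19251836, plus strand: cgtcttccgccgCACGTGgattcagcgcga
NOP10, upstream E-box, chr15:34343289-34343318, minus strand: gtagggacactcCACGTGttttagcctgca
NOP10, E-box at the start, chr15:34343130-34343159, minus strand: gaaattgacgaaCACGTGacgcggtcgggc
POLR1G, chr19:45406620-45406649, plus strand: cccctttggatcCACGTGgtctgcaacctg
PNO1, chr2:68157885-68157914, plus strand: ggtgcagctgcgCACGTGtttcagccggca
LYAR, chr4:4290068-4290097, minus strand: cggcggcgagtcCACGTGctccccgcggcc
RRP9, chr3:51941892-51941921, minus strand: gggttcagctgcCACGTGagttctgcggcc
The first base of the E-box stood 16 bases upstream of the start in UTP4, 10 in UTP20 and 12 in POLR1G, and 14 bases downstream in MRTO4. In NOP10 the 2 E-boxes began 170 and 11 bases upstream. That of RRP9 began 5 bases upstream and that of PNO1 9 bases downstream. LYAR has 2 listed starts, and its E-box began 64 bases upstream of the inner one, whose window holds it, and 69 bases downstream of the outer one.

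Genes that fell and genes that rose were found both with and without an E-box. Of the 18 genes with one, 13 were lower and 4 higher, with a median log2 fold change of -0.61. Of the 25 without one, 19 were lower and 4 higher, with a median of -0.59. In the second list, 51.9% of 27 genes with an E-box were lower and 37% higher (median -0.17). Of its 64 genes without one, 37.5% were lower and 50% higher (median 0.10). Among all tested coding genes with a window, 51% of 1362 with an E-box were lower and 37.5% higher (median -0.19). Of the 9814 without one, 43.8% were lower and 44.5% higher (median 0.02). MYC itself stood at 32.9, 34.1 and 35.7 CPM in the libraries labelled shHDAC5, against 561, 552 and 562 CPM in those labelled shControl, below them in all 3 libraries (log2 fold change -4.03, standard error 0.0355, adjusted p = 7.39e-108).

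**Figure D3:**
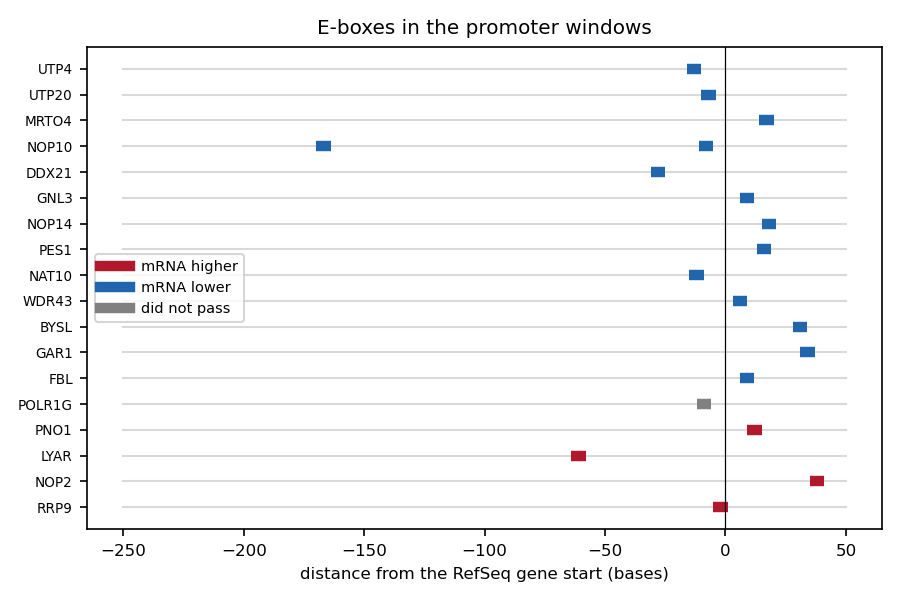
Position of each E-box in the promoter windows of the 18 genes that hold one, in bases from the RefSeq gene start whose window holds it, ordered from the most negative log2 fold change at the top and coloured by the change of the mRNA. All but the E-box of LYAR and the upstream one of NOP10 lie within 50 bases of the start, in genes that were lower and in genes that were higher.

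The mRNAs of the RNA polymerase I group were divided: of 8 genes, 3 fell, 4 rose and 1 did not pass. These shares, 37.5% lower and 50% higher, were close to the 39.9% and 44.8% of all tested genes. The falls included the largest change of the list. UBTF (ENSG00000108312, chr17:44205040-44221304, GRCh38.p14), the HMG-box protein that coats active ribosomal DNA, had 22.3, 20.1 and 19.7 CPM in the libraries labelled shHDAC5, against 108, 114 and 114 CPM in those labelled shControl. The groups were far apart, and the difference was the largest of the 50 (log2 fold change -2.44, standard error 0.0526, adjusted p = 8.16e-70). POLR1B, the second-largest subunit, had 49.9, 47.3 and 45.5 CPM under the shHDAC5 label and 83.3, 81.0 and 84.9 CPM under the shControl label, lower without overlap (log2 fold change -0.81, standard error 0.0471, adjusted p = 2.25e-31). TAF1D, a subunit of the promoter selectivity factor SL1 and the most abundant of this group by counts, had 259, 259 and 263 CPM under the shHDAC5 label and 347, 353 and 349 CPM under the shControl label, again without overlap (log2 fold change -0.42, standard error 0.0274, adjusted p = 4.42e-28). Several other components moved the opposite way. POLR1A, the catalytic subunit that pairs with POLR1B, had 99.9, 97.2 and 103 CPM in the libraries labelled shHDAC5, against 74.0, 73.4 and 74.2 CPM in those labelled shControl (log2 fold change 0.44, standard error 0.041, adjusted p = 4.76e-18). POLR1C, shared with RNA polymerase III, had 33.7, 32.0 and 33.2 CPM under the shHDAC5 label and 26.9, 26.9 and 26.1 CPM under the shControl label (log2 fold change 0.31, standard error 0.0669, adjusted p = 1.64e-05). The labels did not overlap for either gene, and the 2 large subunits POLR1A and POLR1B moved in opposite directions. RRN3, the initiation factor that brings the polymerase to the promoter, had 73.8, 72.5 and 71.4 CPM under the shHDAC5 label and 60.9, 65.1 and 59.5 CPM under the shControl label (log2 fold change 0.23, standard error 0.0459, adjusted p = 2.76e-06). Named RRN3 pseudogenes took 3.04% of the counts of gene and copies under the shHDAC5 label and 8.47% under the shControl label, so reads of this gene may be split among copies. POLR1E had 37.7, 43.3 and 42.9 CPM under the shHDAC5 label and 36.9, 36.2 and 33.3 CPM under the shControl label, a gap of less than 1 CPM between the nearest libraries (log2 fold change 0.22, standard error 0.0608, adjusted p = 0.000522). Its partner POLR1G stood at 5.85, 6.13 and 5.7 CPM in the libraries labelled shHDAC5 and at 5.66, 6.5 and 7.73 CPM in those labelled shControl, overlapping and short of the threshold (log2 fold change -0.17, standard error 0.145, adjusted p = 0.258).

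All 7 proteins in the snoRNP group fell, beside 39.9% of all tested genes. RRP9, also a snoRNP protein, was grouped with the small subunit and rose (log2 fold change 1.58). Of 9 further snoRNP factors in the second list, 3 were lower, 4 higher and 2 did not pass. That is 33.3% lower and 44.4% higher, beside 39.9% and 44.8% of all tested genes. The box C/D particles carry the methyltransferase FBL (fibrillarin) with NOP56 and NOP58, and the box H/ACA particles carry the pseudouridine synthase DKC1 (dyskerin) with NOP10, NHP2 and GAR1. DKC1 (ENSG00000130826, chrX:154762864-154777689) had 65.1, 64.2 and 70.7 CPM in the libraries labelled shHDAC5, against 168, 172 and 179 CPM in those labelled shControl (log2 fold change -1.38, standard error 0.0382, adjusted p = 2.31e-59). NOP10, which contacts DKC1 in the particle, had 12.2, 15.5 and 14.4 CPM under the shHDAC5 label and 28.6, 29.8 and 29.0 CPM under the shControl label (log2 fold change -1.05, standard error 0.0818, adjusted p = 1.09e-22). The 2 partners were both lower by more than 2-fold, whereas NHP2 and GAR1 fell by 0.52 and 0.46 on the log2 scale. NOP58 had 31.9, 31.8 and 33.1 CPM under the shHDAC5 label and 57.9, 58.2 and 62.1 CPM under the shControl label (log2 fold change -0.88, standard error 0.0554, adjusted p = 4.9e-29), and NOP56 fell by 0.71 on the log2 scale. FBL, the most abundant of the group, had 166, 161 and 169 CPM under the shHDAC5 label and 221, 231 and 228 CPM under the shControl label (log2 fold change -0.46, standard error 0.031, adjusted p = 1.58e-26). No library labelled shHDAC5 reached the lowest shControl library for any of the 7, which also held for 39.8% of all tested genes. The standard errors of the 7 fold changes lay between 0.031 and 0.0864.

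Of the 5 nucleolar proteins, 4 fell and 1 rose (80% and 20%, beside 39.9% lower and 44.8% higher among all tested genes). NPM1 (ENSG00000181163, chr5:171387116-171410900), the nucleophosmin chaperone and the mRNA with the most counts of the 50, had 524, 527 and 518 CPM in the libraries labelled shHDAC5, against 1187, 1191 and 1208 CPM in those labelled shControl (log2 fold change -1.19, standard error 0.0235, adjusted p = 1.12e-73). Counts assigned to its 49 named pseudogenes came to 3.53% of those of gene and copies under the shHDAC5 label and 2.29% under the shControl label. NCL (nucleolin), an RNA-binding protein of pre-rRNA processing, had 329.8, 323 and 322 CPM under the shHDAC5 label and 571, 574 and 594 CPM under the shControl label (log2 fold change -0.84, standard error 0.0259, adjusted p = 5.39e-55). GNL3 (nucleostemin), a nucleolar GTPase of proliferating cells, had 63.5, 62.7 and 65.0 CPM under the shHDAC5 label and 108, 107 and 108 CPM under the shControl label (log2 fold change -0.76, standard error 0.0413, adjusted p = 7.58e-34). In each of these genes the 3 replicates lay close together and the labels were well apart. NOLC1, a chaperone of snoRNPs, fell by 0.49 on the log2 scale. LYAR, a nucleolar zinc-finger protein, was the exception: it had 42.4, 44.8 and 43.5 CPM in the libraries labelled shHDAC5, against 29.5, 24.0 and 26.6 CPM in those labelled shControl, higher without overlap (log2 fold change 0.70, standard error 0.064, adjusted p = 1.11e-18).

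Of the 16 factors of the small subunit, 11 fell, 4 rose and 1 did not pass. Their median log2 fold change was -0.55. The shares were 68.8% lower and 25% higher, beside 39.9% and 44.8% of all tested genes. Among 42 small-subunit factors of the second list, 33.3% were lower and 50% higher. UTP4 (ENSG00000141076, chr16:69132649-69169021), a protein of the small-subunit processome that also aids transcription of ribosomal DNA, had 34.8, 34.1 and 33.6 CPM in the libraries labelled shHDAC5, against 92.1, 94.2 and 99.0 CPM in those labelled shControl (log2 fold change -1.48, standard error 0.0488, adjusted p = 2.11e-52). UTP20, a large scaffold of the processome, had 18.2, 20.3 and 20.4 CPM under the shHDAC5 label and 54.8, 50.9 and 51.4 CPM under the shControl label (log2 fold change -1.41, standard error 0.0645, adjusted p = 4.62e-40). NOB1, the nuclease that makes the last cut of the small-subunit rRNA, fell by 1.39 on the log2 scale and was the third gene of the group lower by at least 2-fold. DDX21, a nucleolar RNA helicase and the most abundant here by counts, had 304, 311 and 302 CPM under the shHDAC5 label and 547, 524 and 558 CPM under the shControl label (log2 fold change -0.83, standard error 0.0265, adjusted p = 1.09e-53). These 4 genes did not overlap between labels, as was the case for 84.8% of all tested genes. TSR1, NOP14, NAT10, WDR43, EMG1 and BYSL fell by 0.49 to 0.84 on the log2 scale. NAT10 acetylates and EMG1 methylates the small-subunit rRNA, and TSR1 and BYSL act in late maturation. HEATR1, another processome scaffold, was close to level, with 107, 120.5 and 108 CPM in the libraries labelled shHDAC5, against 124, 117 and 122 CPM in those labelled shControl. Its ranges overlapped, and its log2 fold change of -0.12 passed (adjusted p = 0.00394) but was 0.03 with upper-quartile factors and 0.07 with total counts, where it did not.

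Genes of the small subunit that rose included the largest rise of the whole list. RRP9 (ENSG00000114767, chr3:51933429-51941904), a protein of the U3 snoRNP that guides the first cuts of the precursor, had 66.0, 65.3 and 65.6 CPM in the libraries labelled shHDAC5, against 23.1, 21.4 and 21.1 CPM in those labelled shControl (log2 fold change 1.58, standard error 0.059, adjusted p = 1.26e-47). DDX10, an RNA helicase whose yeast relative frees a snoRNA from the precursor, had 73.8, 69.7 and 72.2 CPM under the shHDAC5 label and 35.3, 34.2 and 32.2 CPM under the shControl label (log2 fold change 1.08, standard error 0.0526, adjusted p = 8.55e-38). Both were higher by more than 2-fold without overlap, alone among the 50 genes. RRP12, whose yeast relative serves subunit export, had 113, 111 and 111 CPM under the shHDAC5 label and 75.3, 72.4 and 73.5 CPM under the shControl label (log2 fold change 0.60, standard error 0.0399, adjusted p = 3.04e-27). PNO1, the partner of NOB1 in late maturation, had 33.9, 35.6 and 34.0 CPM under the shHDAC5 label and 25.5, 26.5 and 26.9 CPM under the shControl label (log2 fold change 0.39, standard error 0.0664, adjusted p = 8.77e-08). PNO1 thus rose where NOB1 fell. UTP15 stood at 22.3, 19.9 and 22.3 CPM in the libraries labelled shHDAC5 and at 23.4, 21.1 and 20.9 CPM in those labelled shControl and did not pass (log2 fold change -0.02, standard error 0.079, adjusted p = 0.818), and with total counts it passed upward (log2 fold change 0.16, adjusted p = 0.0471).

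Of the 14 factors of the large subunit, 11 fell, 1 rose and 2 did not pass. Their median log2 fold change was -0.63. The shares were 78.6% lower and 7.14% higher, beside 39.9% and 44.8% of all tested genes. Among 45 large-subunit factors of the second list, 51.1% were lower and 40% higher. WDR74 (ENSG00000133316, chr11:62832905-62841809), a factor of early large-subunit particles, had 13.5, 14.0 and 14.3 CPM in the libraries labelled shHDAC5, against 44.0, 45.6 and 48.3 CPM in those labelled shControl (log2 fold change -1.72, standard error 0.0716, adjusted p = 2.04e-43). MRTO4, a relative of a ribosomal stalk protein that holds its place during assembly, had 25.8, 23.0 and 27.1 CPM under the shHDAC5 label and 58.6, 61.8 and 60.4 CPM under the shControl label (log2 fold change -1.25, standard error 0.0593, adjusted p = 1.12e-38). Both lay far below the shControl range in all 3 libraries. The PeBoW complex, made of PES1, BOP1 and WDR12, did not move as a unit. WDR12 had 15.0, 16.5 and 13.4 CPM under the shHDAC5 label and 41.6, 41.1 and 41.0 CPM under the shControl label (log2 fold change -1.46, standard error 0.0734, adjusted p = 1.24e-36), and PES1 fell by 0.67 on the log2 scale. BOP1 stood at 99.1, 95.5 and 95.1 CPM under the shHDAC5 label and 94.7, 94.9 and 102 CPM under the shControl label and did not pass (log2 fold change -0.01, standard error 0.0394, adjusted p = 0.841). With upper-quartile factors and with total counts BOP1 was higher, at 0.13 and 0.18 on the log2 scale. NIP7, GRWD1, RRS1 and NOP16, further factors of large-subunit assembly, fell by 0.59 to 0.92 on the log2 scale.

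The remaining genes of the large subunit fell slightly, did not pass or were scarce. DDX18, an RNA helicase and the most abundant of this group by counts, had 123, 127 and 122 CPM in the libraries labelled shHDAC5, against 150.4, 143 and 135 CPM in those labelled shControl (log2 fold change -0.20, standard error 0.0355, adjusted p = 2.54e-07). The call was lost with upper-quartile factors (adjusted p = 0.102, edgeR) and with total counts (adjusted p = 0.663). RRP1 and PPAN fell by 0.28 and 0.34 on the log2 scale. The call of RRP1 was lost with total counts, and that of PPAN with both scalings and without shControl replicate 2 (log2 fold change -0.26, adjusted p = 0.0689). The span of PPAN overlaps that of P2RY11, and 22 of the 50 genes overlap some other coding or long noncoding gene in RefSeq, so counts could be shared where strand was not used. DDX56, another helicase, stood at 67.9, 67.2 and 65.7 CPM under the shHDAC5 label and 64.1, 62.2 and 66.0 CPM under the shControl label and did not pass (log2 fold change 0.06, standard error 0.046, adjusted p = 0.216), but did so upward with both other scalings. NOP2, a methyltransferase of the large-subunit rRNA, was the scarcest of the 50, with 57, 41 and 48 counts in the libraries labelled shHDAC5, against 21, 20 and 30 in those labelled shControl. It was higher without overlap between labels, with the widest standard error of the list (log2 fold change 0.87, standard error 0.248, adjusted p = 0.000915).

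**Figure D4:**
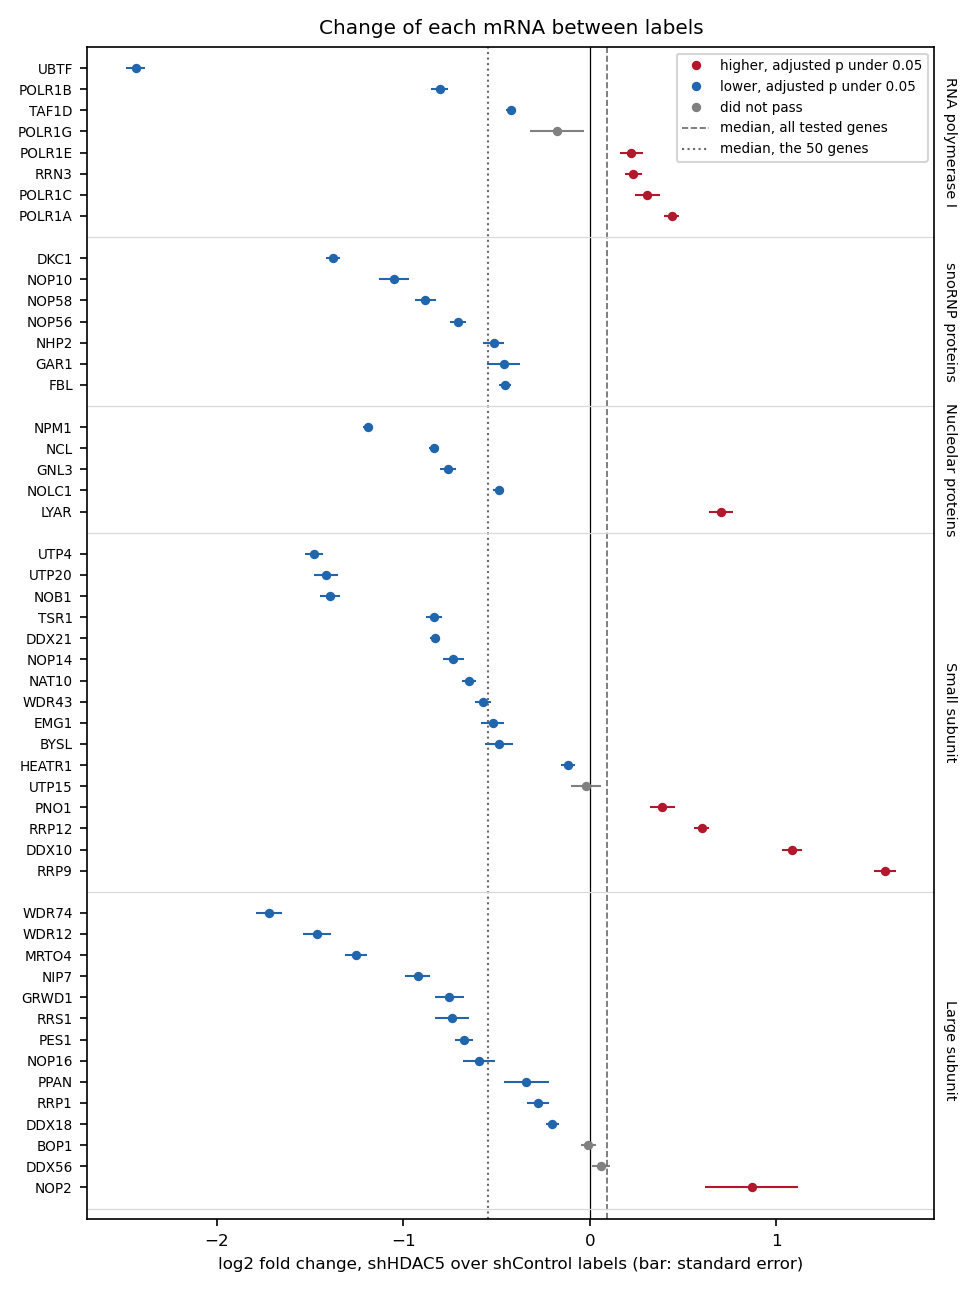
Log2 fold change of each of the 50 mRNAs, libraries labelled shHDAC5 over those labelled shControl, with bars for the standard error, grouped by role. Points run from -2.44 for UBTF to 1.58 for RRP9, and the dotted median of the 50 genes (-0.55) lies left of the dashed median of all tested genes (0.09).

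Levels were compared between genes per kilobase of the length given in the count table (RPKM over TMM-scaled library sizes). The same 3 mRNAs led under both labels. FBL was first under the shHDAC5 label, at 77.3 ± 1.96 RPKM, ahead of NPM1 at 62.9 ± 0.551 and NOLC1 at 58.6 ± 0.193 RPKM (SD, n = 3 each). Under the shControl label NPM1 was first, at 144 ± 1.35 RPKM, then FBL at 106 ± 2.47 and NOLC1 at 82.2 ± 0.824 RPKM. The gaps between these neighbours were larger than their SDs under either label, but the SDs do not cover the lengths used. Those were 2138 bases for FBL and 8311 for NPM1, and the lengths of the transcripts present were not measured. By CPM, NPM1 stood above FBL under both labels, at 523 against 165 (shHDAC5) and 1195 against 227 (shControl). The order between genes therefore depends on these lengths. RRP9 had rank 4 under the shHDAC5 label, at 42.6 ± 0.244 RPKM, and rank 27 under the shControl label, at 14.2 ± 0.689 RPKM. UBTF had rank 45 under the shHDAC5 label, at 2.96 ± 0.197 RPKM, against rank 23 under the shControl label, at 16.0 ± 0.499 RPKM. Within the H/ACA particle, NOP10 (27.7 ± 3.36 RPKM) and NHP2 (25.7 ± 1.21 RPKM) did not differ beyond their SDs under the shHDAC5 label, whereas under the shControl label NOP10 (57.4 ± 1.18 RPKM) stood above NHP2 (36.7 ± 1.64 RPKM). NOP2 was last, at 0.597 ± 0.111 RPKM under the shHDAC5 label and 0.324 ± 0.054 RPKM under the shControl label. Ranks of the 50 levels correlated between labels with a Spearman rho of 0.829, a description over genes that share the same libraries.

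Other genes of ribosome biogenesis, 104 in a second list of factors not among the 50, were divided. Of these 43 were lower, 47 higher and 14 did not pass. The shares, 41.3% and 45.2%, were close to the 39.9% and 44.8% of all tested genes, and the median log2 fold change was -0.02. The lean of the 50 genes toward lower levels was not seen across this second list. Together the 104 mRNAs took 0.732% ± 0.00104 of all counts under the shHDAC5 label and 0.631% ± 0.00506 under the shControl label (SD, n = 3 each). That is the opposite order to the 50 genes. Over TMM-scaled sizes the shares were 0.689% (shHDAC5) and 0.673% (shControl). Both lists were chosen with earlier results of these data known, so the contrast between them is a description. RIOK2, a kinase of late small-subunit maturation, had 4.73, 5.84 and 5.87 CPM in the libraries labelled shHDAC5, against 21.0, 19.8 and 21.9 CPM in those labelled shControl (log2 fold change -1.93, standard error 0.109, adjusted p = 2.2e-32). The helicase DDX54 had 39.7, 36.0 and 39.8 CPM under the shHDAC5 label and 128, 131 and 137 CPM under the shControl label (log2 fold change -1.78, standard error 0.0449, adjusted p = 2.86e-63). TMA16 likewise fell by 1.39 on the log2 scale. NOL6, a small-subunit processome protein, had 125, 124 and 126 CPM under the shHDAC5 label and 42.7, 44.9 and 49.2 CPM under the shControl label (log2 fold change 1.45, standard error 0.0441, adjusted p = 8.87e-56). The helicase DDX47, the snoRNP assembly factor NUFIP1 and ZNF622, an assembly factor of the large subunit, were higher by 1.26, 1.17 and 1.15 on the log2 scale. The distribution of changes places the curve of the 50 genes left of that of the 104 over most of its range.

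**Figure D5:**
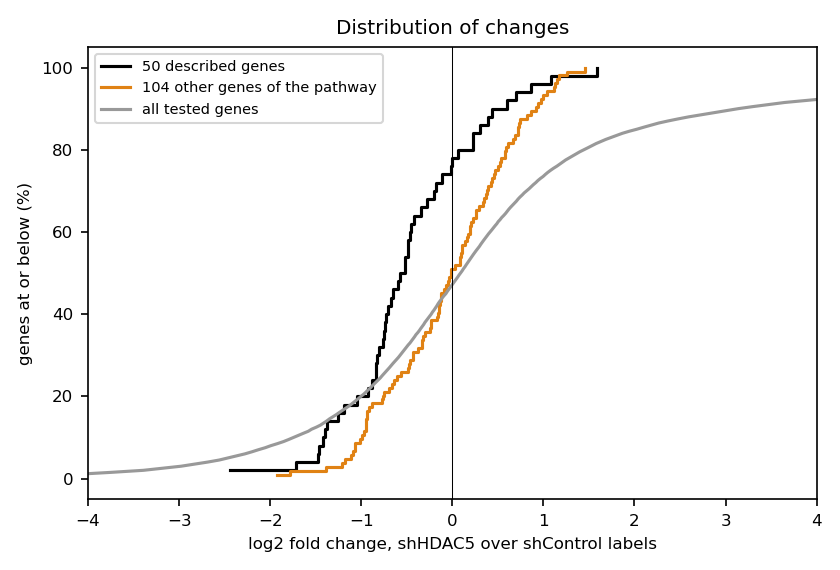
Cumulative share of genes, in percent, at or below each log2 fold change (libraries labelled shHDAC5 over shControl), for the 50 described genes, the 104 other genes of the pathway and all 19181 tested genes, with the axis cut at -4 and 4. The medians are -0.55, -0.02 and 0.09, and both pathway curves are steeper than that of all genes.

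GATA1 peaks in PANC-1 give a second readout at the same genes. Peak names inside the list labelled shHDAC5 begin with GATA1-NC-IP and those inside the list labelled shControl with GATA1-SAHA-IP, so names and labels disagree and no direction between conditions is drawn. GATA1 mRNA was scarce in the libraries labelled BxPC-3, with 53, 41 and 55 counts under the shHDAC5 label and 7, 4 and 5 under the shControl label (log2 fold change 3.02, standard error 0.349, adjusted p = 1.43e-13). Peak summits lay within 1 kb of the start of 14 of 43 genes in the list labelled shHDAC5 (32.6%, beside 25.6% of coding genes) and of 26 of 43 in the list labelled shControl (60.5%, beside 49.7%). At 5 kb the list labelled shHDAC5 had a summit at 58.1% of the 43 genes, beside 61.2% of coding genes, the opposite order to that at 1 kb. In the second gene list the shares of 91 genes with a summit within 1 kb were 18.7% in the list labelled shHDAC5 and 40.7% in that labelled shControl. Both lists had such a peak at 8 genes: BYSL, FBL, GRWD1, LYAR, NIP7, PNO1, POLR1B and POLR1G. Of the 43, 11 had none in either. The matching shares over all coding genes were not computed, so neither count is read as a trait of these genes. No peak at these genes in the list labelled shHDAC5 reached the authors' q of 0.05, which 0.419% of all peaks in that list did, at 0.284% of coding genes. Their fold enrichment over the caller's background ran from 1.65 to 3.00. In the list labelled shControl 3 of 31 peaks did, at RRP9 (chr3:51941369-51942023, fold 4.36), NOP56 (chr20:2652089-2652462, fold 4.31) and FBL (chr19:39845563-39846453, fold 2.92). The RRP9 summit lay 124 bases downstream of the gene start, the NOP56 summit 381 bases upstream and the FBL summit 572 bases downstream. At the same q, 6.98% of the 43 genes had a peak in the list labelled shControl, beside 6.27% of coding genes. RRP9 rose in the RNA labelled as the other cell line, whereas NOP56 and FBL fell.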

How the data were processed

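RNA libraries took their group from the title, and immunoprecipitations from the title and antibody. The authors deposited whole-number read counts per Ensembl gene without normalization, and for each GATA1 peak a fold ratio over the caller's background, a −log10 q-value and a score. Per the submitters' processing notes, the tools named are MACS2 2.2.7.1, featureCounts 2.0.1, fastp 0.23.2, deepTools 3.5.0 and FastQC 0.11.9, on hg38, without roles. Not given in the sources used here are the aligner, the strand setting and whether immunoprecipitations were pooled. Gene symbols were found for 61369 of 61541 IDs.

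Counts of all genes were filtered by group, scaled by TMM and tested on group alone with edgeR 4.0.16 (R 4.3.3) by the quasi-likelihood test, with Benjamini-Hochberg adjustment over 19181 genes and a threshold of 0.05. Standard errors were derived from each fold change and its quasi-likelihood F. The procedure was tested on simulated data in which most genes were unchanged. It was not tested on data such as these, where 84.7% of genes passed. The members, the second list and the tests were chosen with earlier results of these data known. Values in every library are given, within each role group, for the 3 largest changes, the highest mean CPM, and genes that rose or did not pass; of the second list, for the 4 largest changes and the 4 largest rises, some by fold change alone. Alternatives were DESeq2 1.42.0, other scalings, filters and thresholds, a replicate block, leaving out libraries, and other peak and motif windows. Promoter sequences and gene spans came from RefSeq (GRCh38.p14). Input samples were not analysed here.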

Additional observations from a re-analysis of the deposited data

How the results depend on the processing

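DESeq2, the stricter 0.01 threshold, the replicate block and filtering at 1 CPM in 3 libraries left 36 of the 50 genes lower and 10 higher, and leaving out 1 library left 35 or 36 lower and 10 higher. The median log2 fold change of the 50 genes was -0.52 with DESeq2 size factors in edgeR, -0.41 with upper-quartile factors, -0.36 with total counts and -0.59 without a filter, and ran from -0.59 to -0.54 when 1 library was left out. At a minimum of 2-fold, 3846 genes were lower and 5071 higher, with 10 and 2 among the 50 genes and 10 and 7 in the second list. The scaling reversed HEATR1 (a log2 fold change of 0.025 with upper-quartile factors and 0.069 with total counts), BOP1 (0.13 and 0.18) and UTP15 (0.16 with total counts), which the construction of these alternatives produces, since each moves every gene by the same amount. Over TMM-scaled sizes the 50 genes took 0.375% under the shHDAC5 label and 0.585% under the shControl label. In the list labelled shHDAC5, 25 genes had a summit within 5 kb (58.1%, beside 61.2% of coding genes) and 0 had a peak at the authors' q of 0.05 (beside 0.284%), where the list labelled shControl had 3 (6.98%, beside 6.27%). Measured at either gene end over all 50 genes, a setting added after seeing the data, 21 had a peak in the list labelled shHDAC5 (42%, beside 33.9% of coding genes) and 32 in the list labelled shControl (64%, beside 52.1%). The looser core CANNTG was present in 31 of 43 promoters (72.1%), beside 70.5% of coding genes. Replicate numbers did not pair the libraries: the correlation of same-numbered deviations from group means was -0.0126, 0.00258 and 0.00593, and with the replicate block 7558 genes were lower and 8514 higher. Low counts limit NOP2, POLR1G and PPAN most.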
